A study of Homo sapiens with 12 samples.

Results

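The cytosolic HSP70 chaperones and their co-chaperones are followed here through 10 genes of the HEK293T transcriptome: HSPA1A, HSPA1B, HSPA8, HSPA4, HSPA4L, HSPH1, DNAJA1, DNAJB1, BAG3 and HSPB1. They were taken by gene symbol from 56337 distinct gene entries, and each symbol matched 1 entry. All 10 passed the minimum of a mean of 1 FPKM (fragment counts scaled by transcript length and by the library's total), as did 13682 genes in all. The genes were selected on their function and on their FPKM after bafilomycin A1, which was already known to be low in most of them. Their change in that comparison, its difference between cells with and without added iron, and their levels in FAC+BafA1 against BafA1 cells, which rest on the same BafA1 libraries, are therefore given as a description with no test.

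HSP70 proteins bind exposed hydrophobic stretches of unfolded or newly made proteins in a cycle driven by ATP. J-domain proteins (the DNAJ genes) bring clients to HSP70 and trigger ATP hydrolysis, and nucleotide exchange factors (the HSP110 proteins and the BAG proteins) then let ADP and the client go. HSPA8 encodes the constitutive form, HSC70, which also removes clathrin coats and carries proteins to the lysosome in chaperone-mediated autophagy. HSPA1A and HSPA1B encode the inducible form and are classic targets of the heat shock factor HSF1, which binds repeats of the unit nGAAn.

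The cells were wild type HEK293T, derived from human embryonic kidney and expressing SV40 large T antigen, a viral protein with a J domain of its own that binds HSC70. Cells of the first group (FAC+BafA1) were preincubated for 24 h with 0.1 mg/ml ferric ammonium citrate (FAC), an iron source, and then treated for 24 h with 10 nM bafilomycin A1 (BafA1), which blocks the vacuolar proton pump that acidifies lysosomes. The second group (BafA1) received the inhibitor without the iron preincubation, the third (FAC) the iron without the inhibitor, and the fourth (control) neither, with 3 libraries in each group. All groups are 1 cell line, and the labels leave unstated whether a group's 3 libraries are separate cultures; p-values may then measure technical spread only.

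From the steps between low FPKM values, each library was guessed to hold 34.5 to 38.0 M counted fragments. This depth was picked to bring the values read closest to whole fragments. Under it, 51.4% to 55.0% of them in libraries without FAC and 63.5% to 67.0% in those with FAC came within 0.2 of a whole fragment. Many values would do so by coincidence, and rounding of FPKM blurs the steps, so the estimate is weakly supported. In each library 13244 to 13597 genes reached 1 FPKM. Across genes, libraries of 1 group correlated at 0.993 to 0.995, libraries of groups with the same FAC status at 0.959 to 0.991, and libraries that differed in FAC at 0.873 to 0.907. In 627 genes all 6 libraries on one side of the FAC split were listed at 0 while all 6 on the other side were at 1 FPKM or more, which concerns every comparison across FAC. 0 of the 10 chaperone genes were among them. LIN28B, NEFL and VIM, genes of this line, passed the minimum, while PAX2 lay between 0.22 and 1.36 FPKM. These line genes also differed between groups: all 3 tested were called higher in FAC+BafA1 than in FAC cells and in BafA1 than in control cells by limma. Over all genes tested, 9.76% were called higher in the first of these comparisons and 29.5% in the other. VIM was at 562.7 FPKM in FAC+BafA1 cells, 697.0 in BafA1 cells, 334.9 in FAC cells and 354.7 in control cells. PAX2 averaged 0.513, 0.363, 0.68 and 1.01 FPKM in the same groups. The blood cell markers PTPRC and CD3E stayed at or below 0.1 FPKM and HBB was at 0, the keratinocyte markers KRT5 and KRT14 stayed at or below 0.1, and the fibroblast markers COL3A1 and DCN stayed at or below 0.29. COL1A1, the 1 fibroblast marker of 3 that was tested, ranged between 2.68 and 7.45 FPKM and was lower after BafA1 than in control cells (log2 change -0.56), and its part in the results below was not tested.

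The 250 bases before the transcription start were read from RefSeq (GRCh38.p14). Windows are shown for the 5 genes with the largest change after BafA1 and for BAG3, which did not share it. They were picked by that change, and a link between match and change was not tested. Capitals mark pairs of inverted heat shock units, GAANNTTC or TTCNNGAA, each of which reads the same on both strands. DNAJB1 has 3 start sites in the table, and the window of the second is shown because it alone holds a match.

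HSPA1A (chr6:31815293-31815542, plus strand): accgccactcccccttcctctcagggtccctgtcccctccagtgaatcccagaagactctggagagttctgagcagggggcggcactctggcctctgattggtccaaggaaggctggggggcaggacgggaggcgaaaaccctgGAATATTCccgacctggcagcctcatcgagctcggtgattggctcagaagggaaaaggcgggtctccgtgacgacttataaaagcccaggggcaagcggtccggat
HSPA1B (chr6:31827488-31827737, plus strand): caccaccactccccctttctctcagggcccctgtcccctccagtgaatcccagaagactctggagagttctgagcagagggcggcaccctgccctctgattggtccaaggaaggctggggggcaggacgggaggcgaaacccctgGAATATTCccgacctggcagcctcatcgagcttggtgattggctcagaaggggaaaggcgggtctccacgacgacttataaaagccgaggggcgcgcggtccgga
HSPA8 (chr11:123062137-123062386, minus strand): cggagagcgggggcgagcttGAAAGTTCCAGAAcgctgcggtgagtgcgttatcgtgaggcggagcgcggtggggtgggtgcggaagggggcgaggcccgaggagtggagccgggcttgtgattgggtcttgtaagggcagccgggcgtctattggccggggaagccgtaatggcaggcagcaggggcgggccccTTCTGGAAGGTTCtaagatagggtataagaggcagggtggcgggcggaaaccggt
DNAJB1 (chr19:14518398-14518647, minus strand): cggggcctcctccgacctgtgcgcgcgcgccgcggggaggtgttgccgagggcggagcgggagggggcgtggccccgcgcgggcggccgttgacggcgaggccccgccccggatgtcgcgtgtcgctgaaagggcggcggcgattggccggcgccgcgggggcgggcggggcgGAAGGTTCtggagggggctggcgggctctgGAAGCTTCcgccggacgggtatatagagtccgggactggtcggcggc
HSPB1 (chr7:76302423-76302672, plus strand): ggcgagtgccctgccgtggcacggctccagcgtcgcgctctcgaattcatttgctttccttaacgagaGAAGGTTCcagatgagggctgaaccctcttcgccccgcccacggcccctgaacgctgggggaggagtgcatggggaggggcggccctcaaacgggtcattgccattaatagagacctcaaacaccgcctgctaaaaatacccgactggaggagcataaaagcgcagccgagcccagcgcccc
BAG3 (chr10:119651130-119651379, plus strand): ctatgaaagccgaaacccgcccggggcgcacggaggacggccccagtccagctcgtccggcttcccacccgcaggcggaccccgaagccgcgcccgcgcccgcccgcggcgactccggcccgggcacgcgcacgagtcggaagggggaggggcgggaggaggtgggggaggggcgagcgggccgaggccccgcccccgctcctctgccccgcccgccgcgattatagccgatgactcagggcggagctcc

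The HSPA1A and HSPA1B windows were 93.6% identical, and their single match began at position -106 in HSPA1A and -105 in HSPA1B, counted from the start. HSPA8 held 4 matches, beginning at -230, -225, -55 and -50, and these overlap to form 2 runs of 3 units (GAA, TTC, GAA or its reverse complement TTC, GAA, TTC, with 2 bases between units). HSPA8 was the only 1 of the 10 genes with such a run, which 0.441% of 35116 windows of the same length held. DNAJB1 had matches at -77 and -47 and HSPB1 at -182. DNAJA1 and HSPA4L, not shown, had 1 match each, and HSPA4, HSPH1 and BAG3 had none. The 10 genes have 14 windows in all, of which 7 held a pair of units, against 11.6% of all windows, and a match describes the letters only.

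HSPA1B carried almost all of the inducible HSP70 signal, and it was the second most abundant of the 10 genes except after BafA1 alone, where it ranked 5. It had 346.45, 356.19 and 386.81 FPKM in FAC+BafA1 libraries, 63.72, 62.98 and 59.92 in BafA1 libraries, 657.54, 700.11 and 624.94 in FAC libraries, and 503.96, 576.12 and 578.76 in control libraries. The 4 groups did not overlap, with the BafA1 libraries lowest and the FAC libraries highest. After BafA1 the mean was 62.2 ± 2.01 FPKM, against 553 ± 42.4 in control cells (SD, n = 3 each), which is 8.89-fold lower (log2 change -3.13, SE 0.06). In iron-loaded cells HSPA1B fell to 363 ± 21.1 FPKM in FAC+BafA1 cells, against 661 ± 37.7 in FAC cells, a 1.82-fold lower level (log2 change -0.86, SE 0.06, limma adjusted p = 1.93e-06).

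HSPA1A had 8.4, 9.78 and 9.73 FPKM in FAC+BafA1 libraries, 1.08, 1.67 and 1.36 in BafA1 libraries, 13.29, 15.34 and 12.02 in FAC libraries, and 11.82, 17.42 and 13.24 in control libraries. FAC and control libraries overlapped, and each BafA1 library lay far below every other library. The BafA1 mean of 1.37 ± 0.295 FPKM was 10.3-fold below the control mean of 14.2 ± 2.91. HSPA1A was lower in FAC+BafA1 than in FAC cells (log2 change -0.49, SE 0.13, limma adjusted p = 0.0242), a call that was lost without the filter on low values (adjusted p = 0.0788) and on leaving out FAC replicate 1 (0.0562), FAC replicate 2 (0.0931) or FAC+BafA1 replicate 1 (0.0884). Over its 20 alternatives the adjusted p ran between 0.00424 and 0.0931.

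The split between these neighbours on chromosome 6 is uncertain. HSPA1A lies at chr6:31815543-31817946 and HSPA1B at chr6:31827738-31830254, both on the plus strand (GRCh38, GENCODE 44). Their coding sequences have 1926 bases each, of which 1922 (99.8%) are identical, with a longest shared run of 1709 bases. The stretches after the coding sequence, 260 bases in HSPA1A and 378 in HSPA1B, were 48.4% identical, with no shared run over 10 bases. HSPA1A took 1.67% to 2.93% of the FPKM of the pair in the 12 libraries. Against HSPA8, the HSPA1A coding sequence was 73.7% identical with a longest shared run of 23 bases. The sum of HSPA1A and HSPA1B does not depend on the split. It averaged 372 ± 21.6 FPKM in FAC+BafA1 cells, 63.6 ± 1.99 in BafA1 cells, 674 ± 39.4 in FAC cells and 567 ± 44.5 in control cells. After BafA1 it stood at 55.2% of the FAC level in iron-loaded cells and at 11.2% of the control level in cells without added iron.

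HSPA8, the constitutive HSC70 gene (chr11:123057489-123063230, minus strand), was the most abundant of the 10 in every group. It had 1048.52, 1062.96 and 1075.39 FPKM in FAC+BafA1 libraries, 389.52, 399.5 and 397.54 in BafA1 libraries, 1155.43, 1194.48 and 1221.42 in FAC libraries, and 1196.19, 1187.78 and 1186.42 in control libraries. FAC and control libraries overlapped, and the BafA1 libraries stood far below the rest. BafA1 libraries were 3.01-fold lower than control libraries (log2 change -1.59, SE 0.02). In iron-loaded cells the mean fell to 1062 ± 13.4 FPKM in FAC+BafA1 cells, against 1190.4 ± 33.2 in FAC cells (log2 change -0.16, SE 0.02, limma adjusted p = 0.000668). The gene also contains the small nucleolar RNA genes SNORD14C, SNORD14D and SNORD14E, which were at or near 0.

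The inducible pair lost more than the constitutive gene, so the make-up of cytosolic HSP70 mRNA differed between groups. HSPA1A and HSPA1B together made up 25.9% ± 0.876 of the summed FPKM of HSPA1A, HSPA1B and HSPA8 in FAC+BafA1 cells, 13.8% ± 0.459 in BafA1 cells, 36.2% ± 1.67 in FAC cells and 32.2% ± 1.83 in control cells (SD, n = 3 each). The 10 genes together accounted for 0.332% ± 0.00535 of all FPKM in FAC+BafA1 cells, 0.157% ± 0.00281 in BafA1 cells, 0.407% ± 0.00725 in FAC cells and 0.390% ± 0.00903 in control cells. In bulk RNA, fewer cells of a kind and less RNA per cell cannot be told apart.

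**Figure D1:**
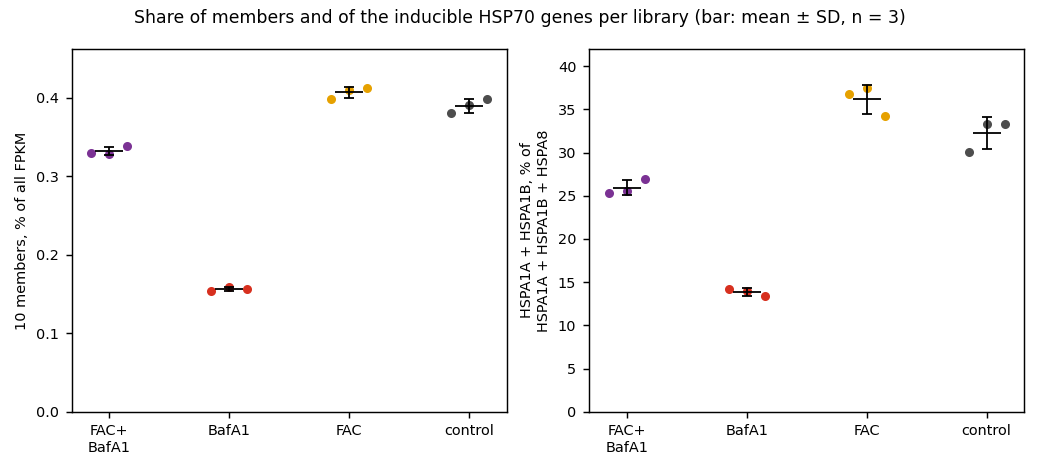
Share of all FPKM held by the 10 genes (left, percent) and share of HSPA1A plus HSPA1B in the sum of HSPA1A, HSPA1B and HSPA8 (right, percent), with 1 point per library and bars for the mean ± SD of 3 libraries. Both shares are lowest in the BafA1 libraries, at means of 0.157% and 13.8%, and the FAC+BafA1 libraries lie between these and the FAC and control libraries.

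The HSP110 genes differed less between BafA1 and control cells than HSPA8 did. HSPH1, HSPA4 and HSPA4L encode large relatives of HSP70 that act mainly as nucleotide exchange factors. HSPA4 (chr5:133052013-133106449, plus strand) had 251.87, 247.17 and 244.56 FPKM in FAC+BafA1 libraries, 192.17, 211.3 and 204.9 in BafA1 libraries, 286.45, 290.3 and 295.75 in FAC libraries, and 292.92, 286.03 and 291.77 in control libraries. The BafA1 libraries were lowest, the FAC+BafA1 libraries came next, and FAC and control libraries overlapped. BafA1 libraries were 1.43-fold below control libraries (log2 change -0.52, SE 0.03). With iron HSPA4 also fell, by 0.23 on the log2 scale in FAC+BafA1 cells relative to FAC cells (limma adjusted p = 0.000527), with a log2 change of -0.15 under quantile normalisation.

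HSPH1 (chr13:31134973-31162388, minus strand) had 130.02, 118.18 and 123.8 FPKM in FAC+BafA1 libraries, 81.85, 89.22 and 86.12 in BafA1 libraries, 136.63, 132.5 and 146.45 in FAC libraries, and 126.72, 130.77 and 135.24 in control libraries. The 3 BafA1 libraries stood apart, and FAC+BafA1 libraries overlapped control libraries. BafA1 libraries were 1.53-fold below control libraries. The FAC+BafA1 libraries were below the FAC libraries (log2 change -0.16, SE 0.05, limma adjusted p = 0.0359), but 8 of 20 alternatives gave an adjusted p above 0.05, over a range of 0.0264 to 0.133. Among them were leaving out FAC replicate 1 (0.0675), FAC replicate 3 (0.119), FAC+BafA1 replicate 2 (0.133) or FAC+BafA1 replicate 3 (0.0848). HSPA4L (chr4:127781821-127840733, plus strand) had the smallest log2 change after BafA1 of the 3, both with and without iron, with 30.7 ± 0.784 FPKM in FAC+BafA1 cells, 26.9 ± 1.21 in BafA1 cells, 33.4 ± 1.29 in FAC cells and 32.9 ± 1.16 in control cells. Its BafA1 libraries did not overlap the control libraries, and it was not called in FAC+BafA1 against FAC cells (log2 change -0.12, SE 0.04, limma adjusted p = 0.0879).

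DNAJB1 encodes the heat-inducible class B J-domain protein that works with HSP70 in dissolving aggregates. It had 45.28, 45.55 and 47.27 FPKM in FAC+BafA1 libraries, 22.63, 23.8 and 22.37 in BafA1 libraries, 55.7, 55.64 and 57.27 in FAC libraries, and 52.56, 51.77 and 53.26 in control libraries. No groups overlapped, and the order of the groups was that of HSPA1B. BafA1 libraries were 2.29-fold below control libraries (log2 change -1.16, SE 0.03). DNAJB1 fell by 0.28 on the log2 scale in FAC+BafA1 cells relative to FAC cells (SE 0.03, limma adjusted p = 0.000135). The gene (chr19:14514769-14560391, minus strand) overlaps TECR on the opposite strand, and whether counting used strand is not given in the sources used here, so its level is uncertain. TECR averaged 120.5 FPKM in FAC+BafA1 cells, 79.0 in BafA1 cells, 113.7 in FAC cells and 108.7 in control cells.

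DNAJA1 (chr9:33025273-33039907, plus strand) encodes a class A J-domain protein of the cytosol. It had 172.53, 165.77 and 170.69 FPKM in FAC+BafA1 libraries, 108.59, 109.24 and 104.8 in BafA1 libraries, 177.51, 176.34 and 191.78 in FAC libraries, and 190, 185.26 and 184.37 in control libraries. The BafA1 libraries were lowest by a wide gap. They were 1.73-fold below control libraries (log2 change -0.79, SE 0.03). In iron-loaded cells DNAJA1 was not called between FAC+BafA1 and FAC (log2 change -0.10, SE 0.03, limma adjusted p = 0.0646).

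BAG3 did not follow the other genes. It encodes the exchange factor that links HSP70 to small heat shock proteins and to selective autophagy of misfolded proteins. BAG3 (chr10:119651380-119677819, plus strand) had 20.13, 20.74 and 21.57 FPKM in FAC+BafA1 libraries, 20.36, 18.96 and 20.2 in BafA1 libraries, 17.84, 19.46 and 18.27 in FAC libraries, and 17.27, 19.42 and 19.59 in control libraries. BafA1 and control libraries overlapped (log2 change 0.08, SE 0.05). All 3 FAC+BafA1 libraries were above the FAC libraries (log2 change 0.16, SE 0.05), but the limma adjusted p was 0.0618, and it was called in 1 of 20 alternatives, on leaving out control replicate 1 (adjusted p = 0.0337 in a range up to 0.178).

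HSPB1 (chr7:76302673-76304295, plus strand) encodes HSP27, a small heat shock protein that holds unfolded proteins for HSP70 without using ATP. It had 41.06, 40.69 and 43.75 FPKM in FAC+BafA1 libraries, 21.08, 18.46 and 16.91 in BafA1 libraries, 49.85, 49.33 and 41.01 in FAC libraries, and 44.36, 48.78 and 45.08 in control libraries. The BafA1 libraries stood well below all others, and FAC+BafA1 libraries overlapped FAC libraries through FAC replicate 3. BafA1 libraries were 2.45-fold below control libraries (log2 change -1.25, SE 0.08). HSPB1 was not called between FAC+BafA1 and FAC (log2 change -0.15, SE 0.08, limma adjusted p = 0.237).

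**Figure D2:**
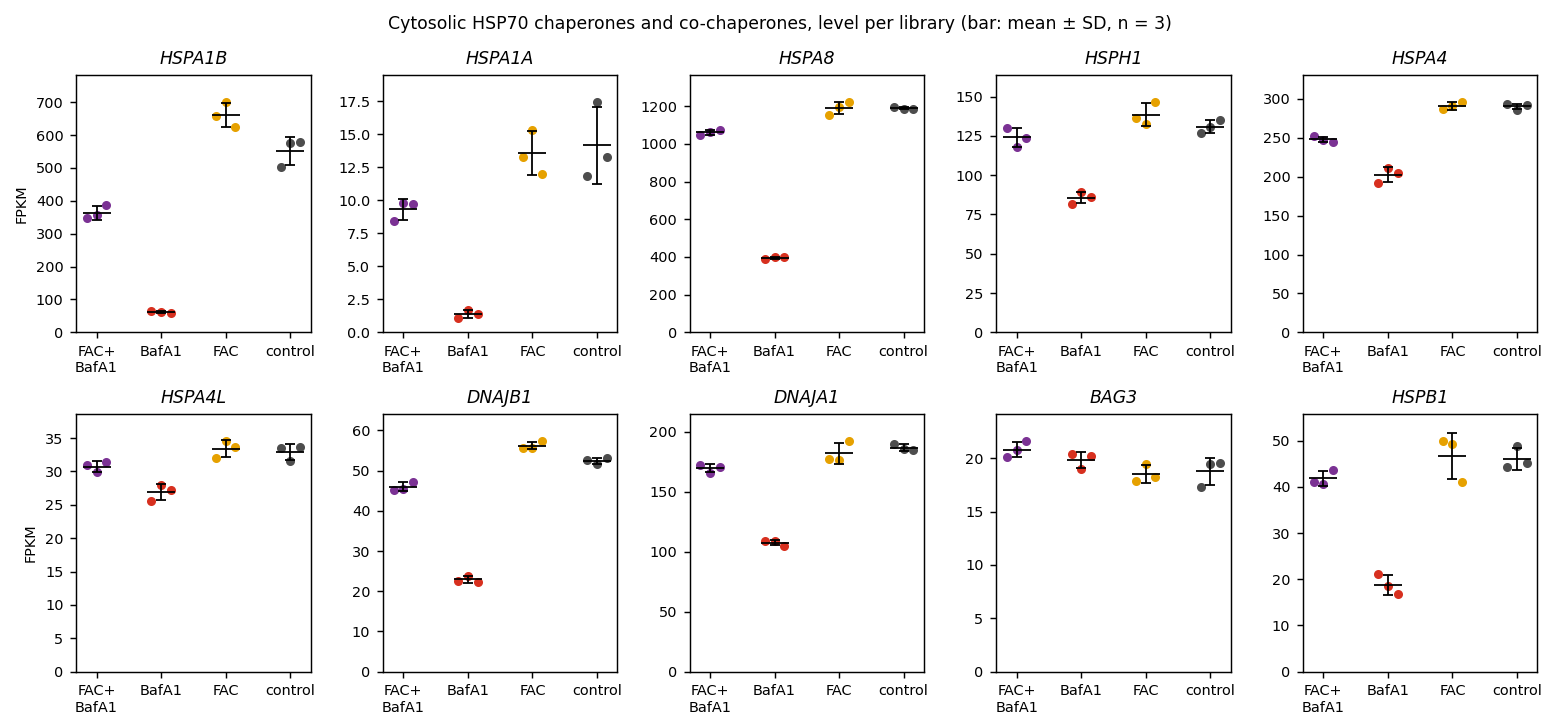
FPKM of each of the 10 genes in each of the 12 libraries, with bars for the mean ± SD of the 3 libraries of a group and axes that start at 0. In 9 genes the 3 BafA1 libraries are lowest without overlap with control, and BAG3 is the exception.

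In cells without added iron, 9 of the 10 genes had BafA1 libraries that were all below the control libraries, and BAG3 was the 1 with overlap. Over all genes tested, 38.3% showed such a separation downwards. The genes were selected on this comparison, so nothing is read from the count of 9. The median log2 change of the 10 was -0.98, against -0.04 over all genes. The genes spread widely around that median, with HSPA1B and HSPA4L at the ends of the 9 (-3.13 and -0.28).

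In iron-loaded cells the inhibitor left smaller differences. FAC+BafA1 cells were lower than FAC cells in 6 of the 10 genes, HSPA1A, HSPA1B, HSPA8, HSPA4, HSPH1 and DNAJB1, at a limma adjusted p under 0.05, and 0 were higher. Over all genes tested 9.49% were called lower and 9.76% higher. The median log2 change was -0.16, against 0.00 over all genes. Of the 4 not called, HSPA4L and DNAJA1 had FAC+BafA1 libraries all below the FAC libraries, BAG3 had them all above, and HSPB1 had overlap. Over all genes, 18.1% were separated downwards and 18.8% upwards in this way.

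The difference between these changes, with FAC minus without, was positive in all 10 genes. It was 2.28 (SE 0.09) on the log2 scale for the summed HSPA1 pair, 1.42 (SE 0.03) for HSPA8, 1.10 (SE 0.12) for HSPB1, 0.88 (SE 0.05) for DNAJB1, 0.69 (SE 0.05) for DNAJA1 and 0.45 (SE 0.07) for HSPH1. HSPA4 (0.29, SE 0.05), HSPA4L (0.16, SE 0.06) and BAG3 (0.08, SE 0.08) had the smallest differences. The median over the 10 was 0.78, against 0.06 over all genes. The change subtracted here is the one on which the genes were selected. Positive differences are therefore favoured in advance, and nothing is read from their sign or median. For the genes called in FAC+BafA1 against FAC cells, the log2 change with iron as a share of that without was 10.3% for HSPA8, 24.3% for DNAJB1, 26.2% for HSPH1, 27.3% for the summed HSPA1 pair and 44.5% for HSPA4. No share is given for the 4 genes that were not called. The shares divide by the change on which the genes were selected, so they are descriptions only.

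**Figure D3:**
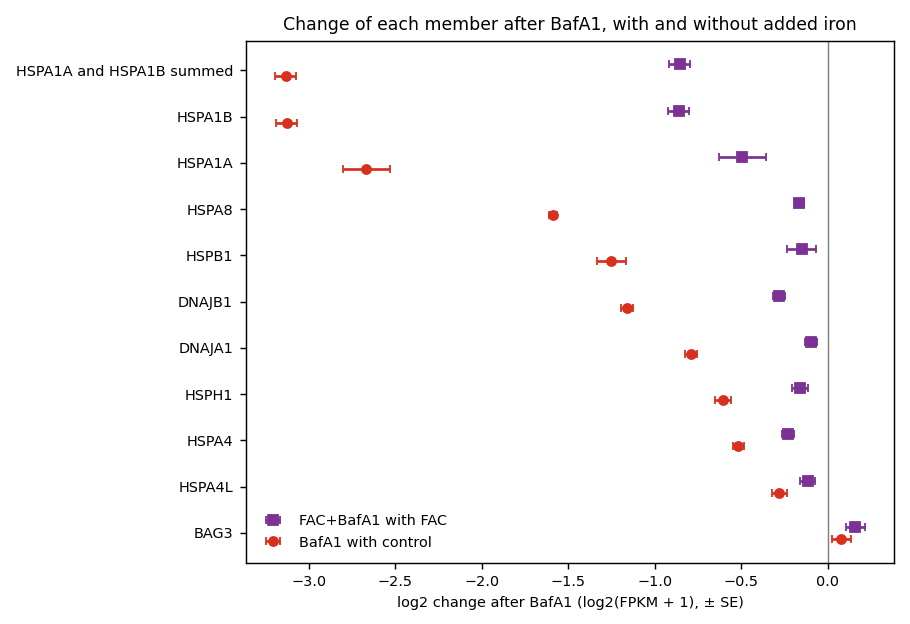
Log2 change after BafA1, on the log2(FPKM + 1) scale with its SE, of each gene and of the summed HSPA1 pair, in FAC+BafA1 against FAC cells (squares) and in BafA1 against control cells (circles). The circle of the summed pair is at -3.13 and its square at -0.85, and every gene's square lies to the right of its circle. The genes were selected on the comparison that the circles show.

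FAC against control cells gave 1 call among the 10 genes. The libraries also split by FAC in 627 genes that were listed at 0 with FAC or without it, and at 1 FPKM or more otherwise. An effect of FAC cannot be told apart from a difference in how libraries with and without FAC were processed. The control libraries also belong to the comparison on which the genes were selected, and the p-values here carry that limit. HSPA1B was higher, and 4.72% of all genes were called higher. It averaged 661 ± 37.7 FPKM in FAC cells, against 553 ± 42.4 in control cells (1.20-fold higher, log2 change 0.26, SE 0.06, limma adjusted p = 0.0121). Without FAC replicate 2 the call was lost (adjusted p = 0.0682, the highest of 20 alternatives, against a lowest of 0.00842). For the summed pair the adjusted p was 0.016, and it passed 0.05 with the FAC and control libraries fitted alone (0.0514), without control replicate 1 (0.0632) and without FAC replicate 2 (0.087), within a range of 0.00475 to 0.087. DNAJB1 had FAC libraries all above the control libraries and was not called (log2 change 0.10, limma adjusted p = 0.12); 9.88% of all genes were separated upwards. The other 8 genes had log2 changes between -0.05 (HSPA1A) and 0.08 (HSPH1), with limma adjusted p of 0.486 to 1. HSPA8 averaged 1190.4 ± 33.2 FPKM in FAC cells and 1190.1 ± 5.29 in control cells.

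Set against cells given BafA1 alone, all FAC+BafA1 libraries were above all BafA1 libraries in 9 of the 10 genes, and over all genes 40.4% were separated upwards. The BafA1 libraries are those on which the genes were selected as low, so nothing is read from this count and no p is given. The summed HSPA1 pair was 5.86-fold higher (log2 change 2.53), HSPA8 2.69-fold, HSPB1 2.22-fold and DNAJB1 2.01-fold. Taken separately, HSPA1B had a log2 change of 2.53 and HSPA1A of 2.12. The values were smaller for DNAJA1 (log2 change 0.65), HSPH1 (0.53), HSPA4 (0.29) and HSPA4L (0.18). BAG3 was the 1 gene with overlap (log2 change 0.07).

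FAC+BafA1 cells were below control cells in 6 of the 10 genes, against 16.6% of all genes called lower. The control libraries, used here and in FAC against control, are also those of the comparison on which the genes were selected. Selection on that comparison can favour genes with high control values, and so calls of lower against control. The p-values of both comparisons are given with that limit. Nothing is read from the count of 6. The 6 were HSPA1A, HSPA1B, HSPA8, HSPA4, DNAJA1 and DNAJB1. The summed HSPA1 pair was lower by a log2 change of -0.60 (limma adjusted p = 5.47e-06), HSPA8 by -0.16 (0.000182), HSPA4 by -0.23 (0.000152) and DNAJB1 by -0.19 (0.000852). Separately, HSPA1B had a log2 change of -0.60 (limma adjusted p = 4.87e-06) and HSPA1A of -0.54 (0.00845). DNAJA1 (log2 change -0.14, limma adjusted p = 0.00924) lost its call under quantile normalisation (adjusted p = 0.0816, the highest of 20 alternatives, with a lowest of 0.0021). The 4 genes not called were HSPH1 (log2 change -0.08, limma adjusted p = 0.239), HSPA4L (-0.10, 0.122), HSPB1 (-0.14, 0.246) and BAG3 (0.14, 0.0638).

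Across the 12 libraries, the log2 levels of the 9 genes other than BAG3 correlated with each other at 0.866 (HSPA4L and HSPB1) to 0.997 (HSPA1B and DNAJB1), and BAG3 correlated with them at -0.524 to -0.222. These are descriptions over 12 libraries that fall into 4 treatment groups. The 12 include the BafA1 and control libraries of the comparison on which the genes were selected. High correlations among the 9 are therefore favoured in advance, and nothing is read from them. Ranked by likeness to the summed HSPA1 pair over the 12 libraries, the closest genes outside the 10 were MTCH2, a mitochondrial outer membrane insertase (r = 0.998), ALDH1B1, a mitochondrial aldehyde dehydrogenase (0.997), MRPS7, a mitochondrial ribosomal protein (0.997), ACTG1, cytoplasmic gamma actin (0.9965), and UBL4A, a chaperone of tail-anchored proteins (0.996). Among the 10, DNAJB1 ranked at position 3, HSPA1A at 98 and HSPA8 at 131 of all genes tested, and HSPA4L at 1835. Within the 6 libraries with FAC, the correlation with the summed pair was 0.98 for DNAJB1, 0.958 for HSPA4, 0.9525 for HSPA1A, 0.9455 for HSPA8 and 0.862 for HSPA4L. It was 0.738 for HSPH1, 0.709 for HSPB1, 0.692 for DNAJA1 and -0.797 for BAG3.

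Other genes of the HSP70 system and related chaperone genes were read from 7 lists holding 73 genes, of which 62 passed the minimum. The 4 lists called cytosolic were other HSP70 genes, other J-domain proteins, other exchange factors and adaptors, and other small heat shock proteins. Some genes in them, such as DNAJC8, are not strictly cytosolic. The 4 lists held 29 tested genes. After BafA1, 11 of these were higher and 13 lower than in control cells, with a median log2 change of -0.03. Over all genes, 29.5% were called higher and 37.6% lower by limma. With iron, FAC+BafA1 against FAC cells, the counts were 3 higher and 4 lower, and the median was 0.04. Calls over all genes were then 9.76% higher and 9.49% lower. These shares over all genes also apply beside the counts of each list below.

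Among other cytosolic HSP70 genes, 3 of 6 were tested. HSPA2, known for its role in spermatogenesis, was lower after BafA1 (0.493 FPKM, against 1.41 in control cells, log2 change -0.69). It passed the minimum of a mean of 1 FPKM only through libraries outside the BafA1 group. This fall is therefore a description near the floor with no p, though HSPA2 stays in the counts. HSPA14, a ribosome-associated HSP70, was higher (log2 change 0.23, limma adjusted p = 2.83e-05). With iron, 0 of the 3 were called, and the ends of the list were HSPA12A, a distant HSP70 relative (log2 change -0.09, limma adjusted p = 0.333), and HSPA2 (0.10, 0.457). HSPA6, a strictly stress-induced HSP70 gene, lay between 0 and 0.19 FPKM in all 12 libraries and was not tested; it is outside the naming rule and was picked after its values were seen.

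Of the other J-domain genes, 15 of 16 were tested, and 7 were higher and 4 lower after BafA1 than in control cells. At the ends were DNAJB5 (log2 change 0.93, limma adjusted p = 2.41e-06) and DNAJC8 (-0.59, 8.66e-10). The product of DNAJC8 associates with the spliceosome, so it is not strictly cytosolic, and the gene stays in the counts. With iron 1 was higher, DNAJB5 (0.43, limma adjusted p = 0.00794), and 2 were lower. DNAJC2, a J-domain protein of the ribosome, had the lowest value (-0.13) and was not called (limma adjusted p = 0.111). Of the 10 exchange factors and adaptors 2 were higher and 7 lower after BafA1. STIP1, the HOP adaptor that joins HSP70 to HSP90, was lowest (log2 change -0.74, limma adjusted p = 7.28e-11), and BAG6, which handles mislocalised membrane proteins, was highest (0.24, 0.00062). In FAC+BafA1 against FAC cells 1 was higher and 2 lower, with TTC4, an HSP90 adaptor, lowest (-0.20, limma adjusted p = 0.00692) and BAG1, an exchange factor linked to the proteasome, highest (0.19, 0.00591).

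HSPB8, the small heat shock protein that forms a complex with BAG3, moved in the opposite direction to HSPB1. It had 8.68, 8.63 and 8.47 FPKM in FAC+BafA1 libraries, 13.34, 12.46 and 12.06 in BafA1 libraries, 0.99, 0.77 and 1.04 in FAC libraries, and 0.35, 0.48 and 0.53 in control libraries. The groups did not overlap. Its means of 0.453 FPKM in control and 0.933 in FAC cells lay under the minimum of 1. HSPB8 passed it only through the libraries given BafA1, so its changes are a description and no p is given. It stays in the counts of the 4 cytosolic lists above. Its mean after BafA1 was 27.8-fold that of control cells (log2 change 3.23), and in FAC+BafA1 cells 9.21-fold that of FAC cells (2.31). Both ratios rest on low denominators. FAC+BafA1 cells had less HSPB8 than BafA1 cells (log2 change -0.50), and FAC cells more than control cells (0.41). The other 7 small heat shock genes of the list did not pass the minimum.

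**Figure D4:**
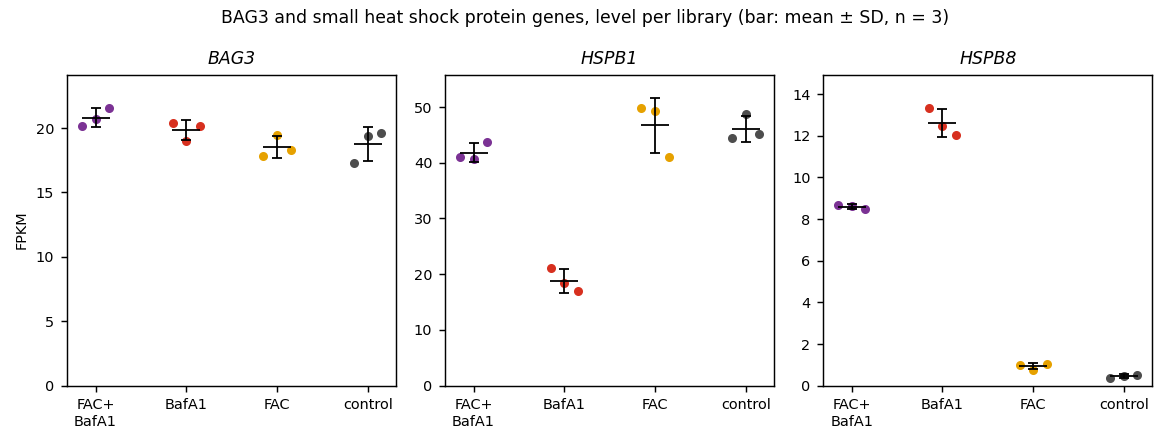
FPKM of BAG3, HSPB1 and HSPB8 in each of the 12 libraries, with bars for the mean ± SD of 3 libraries and axes that start at 0. BAG3 stays between 17.27 and 21.57 FPKM in all libraries, HSPB1 is lowest and HSPB8 highest in the BafA1 libraries.

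In the HSP70 system of the endoplasmic reticulum, 9 of 11 genes were higher after BafA1 than in control cells and 0 lower, with a median log2 change of 0.84. Calls over all genes were 29.5% higher and 37.6% lower after BafA1, and 9.76% and 9.49% with iron. DNAJB9, a J-domain protein induced by misfolded proteins in the endoplasmic reticulum, was highest (log2 change 2.86, limma adjusted p = 8.37e-12), and SIL1, an exchange factor for BiP, was lowest and not called (-0.10, 0.581). HSPA5, which encodes BiP, averaged 606.7 FPKM in BafA1 cells and 182.7 in control cells, and was likewise picked after its values were seen. In FAC+BafA1 against FAC cells 4 were higher and 0 lower, from SDF2L1 (log2 change -0.11, limma adjusted p = 0.176) to HSPA13 (0.53, 1.66e-06).

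The mitochondrial list split. It also held HSPD1 and HSPE1, which encode the HSP60 and HSP10 chaperonin, a system apart from mitochondrial HSP70. Both were called lower after BafA1 and in FAC+BafA1 against FAC cells, and are in the counts. Over all genes the calls were 29.5% higher and 37.6% lower after BafA1, and 9.76% and 9.49% with iron. After BafA1, 5 of 11 genes were higher and 6 lower, with HSPE1, the HSP10 co-chaperonin, lowest (log2 change -1.25, limma adjusted p = 2.96e-11) and GRPEL2, an exchange factor for mitochondrial HSP70, highest (1.19, 6.14e-11). With iron, 1 was higher and 5 lower in FAC+BafA1 than in FAC cells, with HSPD1, the HSP60 chaperonin, lowest (-0.22, limma adjusted p = 5.27e-05) and HSCB, a J-domain protein of iron-sulfur cluster assembly, highest but not called (0.20, 0.0741).

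Of 11 other genes linked to HSF1, 2 were higher and 7 lower after BafA1 than in control cells, with a median log2 change of -0.38. Calls over all genes were 29.5% higher and 37.6% lower after BafA1, and 9.76% and 9.49% with iron. SERPINH1, the collagen chaperone HSP47, was lowest (-0.68, limma adjusted p = 4.6e-06). With iron, 1 was higher and 6 lower, again with SERPINH1 lowest (-0.28, limma adjusted p = 0.0211). HSF1 mRNA was not called in either comparison (log2 change 0.13 after BafA1, limma adjusted p = 0.239, and 0.06 in FAC+BafA1 against FAC cells, 0.733). HSF2 was higher after BafA1 (0.56, limma adjusted p = 9.53e-08) and not called in FAC+BafA1 against FAC cells (-0.04, 0.513).

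**Figure D5:**
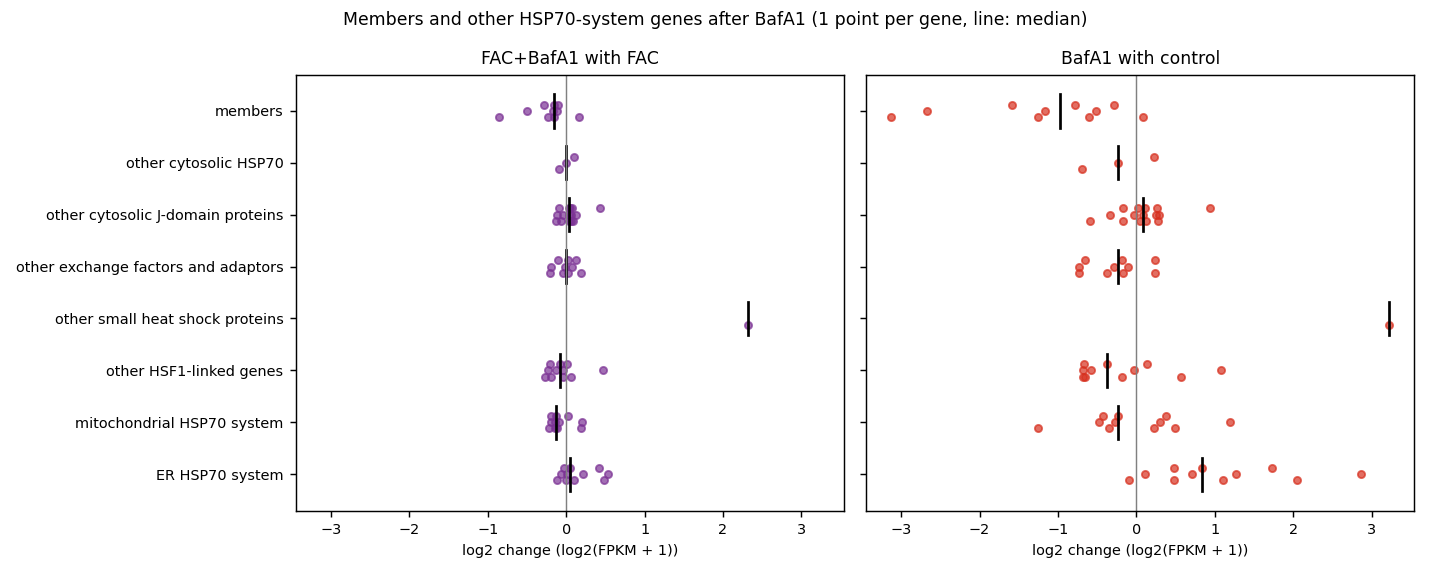
Log2 change on the log2(FPKM + 1) scale of the 10 genes and of the 7 lists, with 1 point per tested gene and a line at the median, in FAC+BafA1 against FAC cells (left) and in BafA1 against control cells (right). The median of the 10 genes is -0.16 on the left and -0.98 on the right, and the endoplasmic reticulum list has a median of 0.05 on the left and 0.84 on the right.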

How the data were processed

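TruSeq stranded mRNA libraries (per the labels' protocols) were sequenced from 12 samples. The deposited table holds the authors' FPKM values per gene. The submitters' processing notes name STAR, RSEM and GRCh38; tool versions, annotation release, filters and strand use in counting are not given there. FPKM is relative to the total of each library, so a large change elsewhere can move every value. Depth is therefore an estimate from the steps of low FPKM values, in transcripts of 700 to 2000 bases under 0.5 FPKM with an assumed fragment of 150 bases. Of 56340 rows, 3 with repeated IDs were dropped.

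Values were tested as log2(FPKM + 1) with limma 3.58.1 in R 4.3.3, with 1 mean per group, all 12 libraries in 1 fit, a mean-variance trend, and Benjamini-Hochberg adjustment over 13682 genes whose mean reached 1 FPKM. The threshold was an adjusted p of 0.05. A test planned for the members in FAC+BafA1 with BafA1 is not printed, since they were selected on the BafA1 libraries. The added 1 understates the change of low genes, and fold values are ratios of mean FPKM. The members, lists and named genes were chosen with earlier results of these data known. Genes named from a list are those with its lowest and highest log2 change in BafA1 with control and in FAC+BafA1 with FAC, plus HSF1 and HSF2, and the 5 genes most correlated with the summed HSPA1 pair; the highest of the HSF1-linked list is not reported here. Motifs and sequence identity were computed with Python 3.11.15 and Biopython 1.88 from RefSeq windows (GRCh38.p14) and GENCODE 44 transcripts. Alternatives were another pseudocount or filter, median-of-ratios and quantile normalisation, no trend, each comparison alone, a replicate block, the summed HSPA1 row and each library left out.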

Additional observations from a re-analysis of the deposited data

How the results depend on the processing

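Of the 10 genes, 6 were called in FAC+BafA1 against FAC cells, with 4 without a filter, 5 under quantile normalisation, without the trend, with the groups alone and with the summed HSPA1 row, and 4 to 7 on leaving out each replicate. In FAC against control cells the count was 1, and 0 to 1 on leaving out each replicate. In FAC+BafA1 against control cells it was 6, with 5 under quantile normalisation and with the summed row, and 6 to 6 on leaving out each replicate. With the replicate block the counts were 6 in FAC+BafA1 with FAC, 1 in FAC with control and 6 in FAC+BafA1 with control, the same as without it. Same-numbered libraries of different groups correlated at -0.0736 to 0.138 in their deviations, and 5 of 12 correlated best with their own number, so the numbers were not treated as pairs. The median change after BafA1 without iron was -0.98, with -0.91 under median-of-ratios scaling, -0.91 under quantile normalisation, -0.79 with the summed row, and -0.99 to -0.96 on leaving out each replicate. The median difference between the changes was 0.78, with 0.72 under median-of-ratios scaling, 0.69 with the summed row, and 0.77 to 0.81 on leaving out each replicate. The cause of these shifts was not tested. Some uncalled FAC against control changes reversed: HSPA8 was -0.0188 and HSPA4 -0.00104 under quantile normalisation, and on leaving out each replicate HSPA1A ran between -0.16 and 0.10, HSPA8 between -0.0187 and 0.0213, HSPA4 between -0.00922 and 0.0137, HSPA4L between -0.00834 and 0.0505, BAG3 between -0.0716 and 0.0146, and HSPB1 between -0.0326 and 0.105. Having 3 libraries a group limits what the smaller changes can show, and the depth is too uncertain to add to this.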

Other observations

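CRYAB, the small heat shock protein alphaB-crystallin, did not pass the minimum and was picked out after its values were seen. It had 0.15, 0.07 and 0.15 FPKM in FAC+BafA1 libraries, 0.88, 1.29 and 1.43 in BafA1 libraries, 0.07, 0 and 0.05 in FAC libraries, and 0.08, 0.08 and 0.15 in control libraries. The BafA1 libraries were highest without overlap, and no test was run on it. Like HSPB8, and unlike HSPB1, it was higher with BafA1 alone than in control libraries.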
